A study of Mus musculus with 167 samples.

Results

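Single lymphoid-primed multipotent progenitors (LMPPs) of mouse bone marrow were divided by whether the transcript of Ly6a, the gene of the surface protein Sca-1, was detected. Columns of the deposited table, each 1 captured cell, were kept when at least 1000 genes reached a TPM of 1, which left 130 of 168 columns. TPM is a transcript's abundance scaled so that every column has the same total. A kept cell was called Ly6a-positive at a Ly6a TPM of 1 or more, which held for 50 cells, and Ly6a-negative below it, which held for 80 cells. The members were chosen by the measured Ly6a TPM, so its values are given as a description and it is left out of every gene count below. The cells came from wild-type female C57BL/6J mice aged 4 or 14 months, with no treatment and no transgene named in the labels. The sort took cells that stained for c-Kit, CD34 and Sca-1 and strongly for Flt3, but not for CD150 or mature lineage markers. The sort therefore required Sca-1 protein on every cell of both classes, and the contrast is one of transcript detection among cells that all stained. The sorted cells were captured and their cDNA amplified on the Fluidigm C1 chip, a microfluidic device that handles 1 cell per chamber. The labels describe cells and give no animal, so that all cells of an age made up 1 sample. Cells are not replicates, and no p-value or standard error was computed.

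Sca-1 is a small glycoprotein of the Ly6 family that is held in the membrane by a glycosylphosphatidylinositol (GPI) anchor. It marks mouse blood stem cells and early multipotent progenitors, is lost as cells become committed myeloid progenitors, and is itself induced by interferons. LMPPs can still form lymphoid cells, granulocytes and monocytes, but few platelets or red cells.

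Ly6a was detected in similar shares of cells at both ages. Of 64 kept cells of 4 months, 25 were positive, a share of 39.1% (95% exact binomial interval 27.1 to 52.1), and of 66 kept cells of 14 months, 25 were positive, a share of 37.9% (26.2 to 50.7). The 14-month columns carry 1 of 2 set numbers, which no label explains, and 10 of 29 cells of set 4 and 15 of 37 cells of set 5 were positive. These intervals, like all others given here, cover counting error only. Ly6a ranged from 1.07 to 2416 TPM in the positive cells, with a median of 129 TPM. Close to the cut, 2 positive cells had 1 to 2 TPM and 5 negative cells had 0.58 to 0.94 TPM. In the other 75 negative cells Ly6a was listed at 0, while 44 of the 50 positive cells had 10 TPM or more. In a single cell a transcript listed at 0 may have escaped capture, so a negative cell is one in which Ly6a was not detected.

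Ly6a-positive cells had more genes detected, and mainly at 4 months. At that age the number of genes per cell ran from 3158 over a median of 4987 to 6848 in positive cells, and from 1066 over 3806 to 6785 in negative cells. At 14 months the medians were 3477 and 3230, with 3097 against 3230 in set 4 and 3887 against 3168 in set 5. Of the 9 cells with more than 6000 genes, 8 were Ly6a-positive and 7 of those were of 4 months. The median share of TPM from mitochondrial transcripts was 13.8% in positive and 16.0% in negative cells, and the 6 cells in which it reached 50% were all negative. Since TPM sums to 1000000 in each column, the table does not retain the sequencing depth, which is unknown. A cell with more genes detected has more genes above 0, and the mean of log2(TPM+1) was higher in the positive class for 82.3% of the 9312 measured genes, those whose share of cells averaged at least 10% over both classes. The median difference of those genes was 0.42 on the log2(TPM+1) scale, 0.64 within 4 months and 0.20 within 14 months. All differences below are positive minus negative and relative to that median. The log2(TPM+1) scale understates the change of low genes, and the subtraction then moves every value downward. A gene at 0 in every kept cell stands at -0.42 over all kept cells. A pooled value between -0.42 and 0 therefore goes with a higher mean in the positive class. As a companion value, the same difference was taken in 38 pairs of 1 positive and 1 negative cell of the same age matched on genes detected (medians 3846 and 3841), where the median gene differed by 0.00. Of these pairs 16 were of 4 months and 22 of 14 months, against 25 positive cells of each age. The matched values therefore also differ in the mix of ages and in the cells used. How much of a class difference belongs to the number of genes detected was not tested, and the matched value is given for each gene list whose median is described and for many of the genes.

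**Figure D1:**
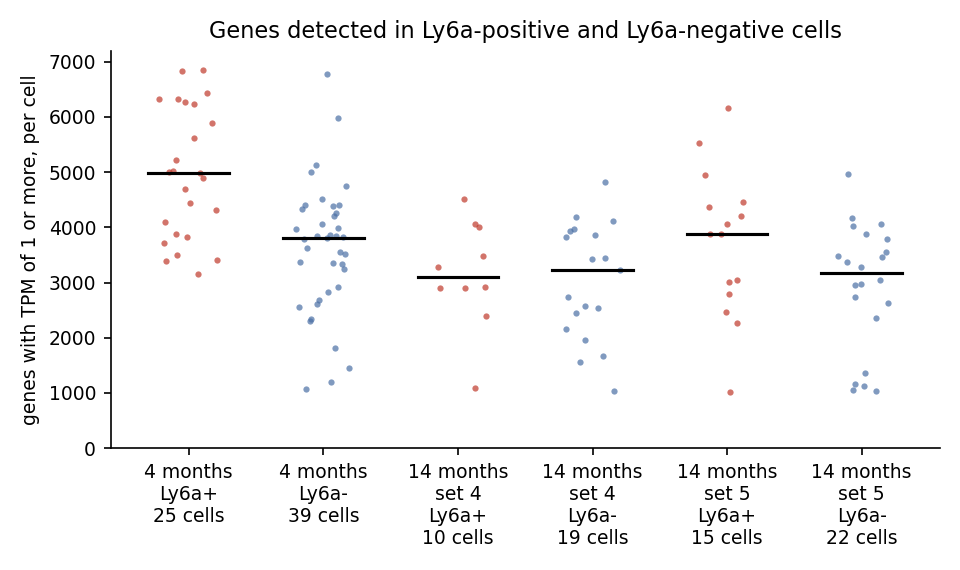
Number of genes with a TPM of 1 or more in each kept cell (vertical axis), by Ly6a class and by age or 14-month column set (horizontal axis). Points are cells and black bars are medians. The Ly6a-positive cells of 4 months have the highest median, 4987 genes, and set 4 shows the medians in the opposite order, 3097 and 3230.

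Among all pairs of kept cells, 4 of 8385 had a correlation of log2(TPM+1) above 0.75, where the next highest was 0.70. The 7 cells in these pairs were all Ly6a-positive and of 14 months, 1 in set 4 and 6 in set 5. Without them 555 genes were higher in the positive class and 70 lower by the fold used below, against 576 (6.19% of the measured genes) and 73 (0.784%) with them.

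Both classes had the transcripts of the sort gate. Flt3, the cytokine receptor used for the gate, was detected in 98% of positive and 95% of negative cells, Cd34, a surface sialomucin, in 94% and 85%, and Kit, the stem cell factor receptor, in 70% and 53.8%. Slamf1, which encodes CD150, was listed at 0 in every kept cell. Many markers of lineages outside the gate were not detected: 8 of 17 erythroid genes in the table (among them Gata1 and Alas2), 8 of 22 mature B, T and NK genes (among them Cd3e and Ncr1), 7 of 20 mature granulocyte and macrophage genes (among them Ly6g, Ltf and Adgre1), 4 of 18 megakaryocyte genes (Gp1bb, Gp5, Gp6 and Treml1) and 8 of 11 mast cell and basophil genes (among them Cpa3 and Fcer1a) were listed at 0 in every kept cell. The summed level of the erythroid list ran from 0 over a median of 465.5 to 3927 TPM in positive cells and from 0 over 235 to 2959 TPM in negative cells. Its measured gene with the highest relative difference was Car2, a carbonic anhydrase, at 1.69 (3.02 at 4 months, 0.36 at 14 months, 1.51 matched). For the B, T and NK list the medians were 521 and 246 TPM (ranges 0 to 1643 and 0 to 2158). Ighm, the heavy chain locus that early lymphoid progenitors also transcribe, was 1 of its 2 measured genes. Its relative difference of 1.44 changed sign in the matched cells (-0.04). For the megakaryocyte list the medians were 409 and 283 TPM (ranges 28.6 to 1604 and 0 to 4243). For the granulocyte and macrophage list they were 10.7 and 9.08 TPM (ranges 0.63 to 364930 and 0 to 996), the top value being 1 positive cell of set 5 in which Camp, a neutrophil granule peptide, made up nearly all of the list. The mast cell and basophil list had a median of 0 in both classes (maxima 282 and 309 TPM). The part of these markers in the results below was not tested.

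At a relative difference of 1 or more, 576 of 9312 measured genes (6.19%) were higher in Ly6a-positive cells, and at -1 or less 73 (0.784%) were lower. The split between higher and lower genes moved with the processing: 88.8% of the genes past the fold were higher, but 53.6% in the matched cells, where 398 genes (4.35%) were higher and 345 (3.77%) lower, and 68.7% in a linear fit with genes detected and age, where 288 (3.09%) were higher and 131 (1.41%) lower. It was 76.4% after quantile normalization, 65.3% with a pseudocount of 0.1, 65.8% over genes found in 30% of cells and 99.0% when medians over cells replaced the means. The ages shared few of these genes. Within 4 months 1188 genes (12.8%) were higher and 605 (6.5%) lower, and within 14 months 756 (8.12%) and 331 (3.55%). In both ages 218 genes (2.34%) were higher, which is 18.4% of the higher genes of 4 months and 28.8% of those of 14 months, and 16 (0.172%) were lower, which is 2.64% and 4.83%. In the matched cells 131 (1.43%) and 100 (1.09%) were higher and lower at both ages. Opposite directions were seen for 65 genes (0.698%) higher at 4 and lower at 14 months and 30 (0.322%) the reverse. Across the 9312 genes, which share cells and are not independent, the relative differences of the ages had a Pearson correlation of 0.16 and a Spearman correlation of 0.15, and in the matched cells 0.04 by either measure.

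Among the 12 genes highest in Ly6a-positive cells that had the same sign at both ages were Slc50a1 (2.71), Gtf2a2 (2.51), Tecr (2.38), Psmb9 (2.29), Yif1b (2.20), Ifitm1 (2.20), Tbca (2.19), Gimap6 (2.15), Hcst (2.02), Med28 (2.02) and Cops9 (1.99). These genes kept their sign in each of 20 alternative settings. The settings reuse many of the same cells, and the genes were picked by their pooled values. A kept sign is therefore no independent support, here or for the genes below. They fall into several functions: Psmb9 is a subunit of the immunoproteasome and Ifitm1 an interferon-induced membrane protein, Gimap6 is a GTPase of lymphocytes, and Hcst (DAP10) is the signalling adaptor of the NKG2D receptor. Gtf2a2 and Med28 belong to the general transcription machinery, Slc50a1 is a sugar transporter, Tecr elongates very long-chain fatty acids, Yif1b acts in traffic from the endoplasmic reticulum to the Golgi, Tbca folds tubulin and Cops9 is a COP9 signalosome subunit. Slc50a1 was detected in 84% of positive cells (interval 70.9 to 92.8) and 45% of negative cells (33.9 to 56.5), and ran from 0 over a median of 133 to 821 TPM in the former and from 0 over 0 to 3032 TPM in the latter. The ranges of the classes overlapped for each of these genes. The 14-month sets did not give the same value for all of them: Slc50a1 was at -0.24 in set 4 and 3.97 in set 5, and Yif1b at -0.08 and 1.54, whereas Tbca (2.07 and 2.34), Gimap6 (1.99 and 2.42) and Hcst (2.39 and 2.95) were alike in both. In the matched cells these genes lay between 1.35 (Med28) and 2.87 (Slc50a1).

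Among the 12 lowest genes were Hist1h2ao (-1.67), Pstpip1 (-1.67), Odr4 (-1.38), Akap8 (-1.37), Rbmx2 (-1.35), Aqr (-1.32), Mre11a (-1.31), Ms4a6c (-1.22), Trim37 (-1.19), Lpgat1 (-1.18) and Trpv2 (-1.17). None of these changed sign in the 20 settings, although several were at 0 when medians over cells were compared. Hist1h2ao is a replication-dependent histone gene whose near-identical copies could share its reads, so its value is uncertain. It was detected in 24% of positive and 42.5% of negative cells. Pstpip1, a cytoskeletal adaptor of blood cells, was detected in 30% of positive and 48.8% of negative cells, and its relative difference was -2.66 at 4 months and -0.73 at 14 months. Mre11a, a nuclease of the DNA break repair complex, was at -0.68 and -1.93, and Aqr, an RNA helicase of the spliceosome, at -1.26 and -1.39. Ms4a6c, a membrane protein of monocytes and macrophages, was detected in 10% of positive and 26.3% of negative cells. In the matched cells these genes lay between -2.01 (Odr4) and -0.41 (Trim37).

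**Figure D2:**
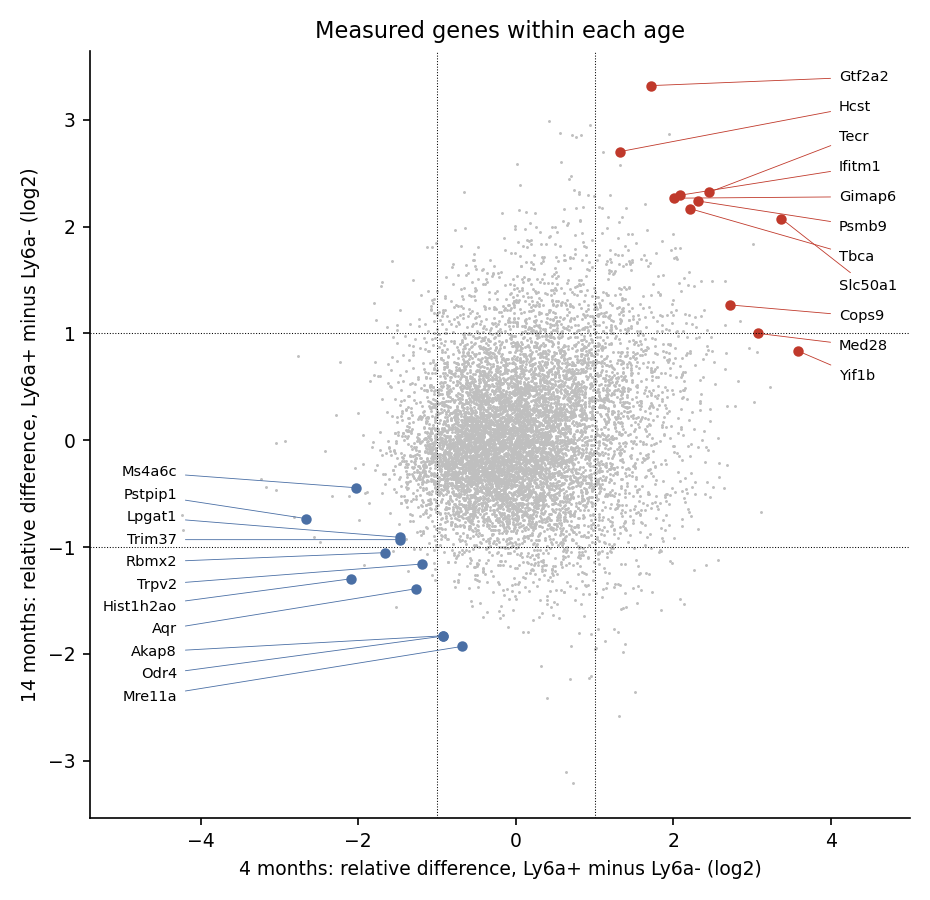
Relative difference of each measured gene between Ly6a-positive and Ly6a-negative cells within 4 months (horizontal axis) and within 14 months (vertical axis), both in log2 units. Red and blue points are the highest and lowest genes named in the text, and dotted lines mark 1 and -1. Most genes past the fold at one age lie inside it at the other: 218 genes are in the upper right corner and 16 in the lower left.

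Several genes of the interferon response were higher in Ly6a-positive cells. Of 43 measured genes on the list, 27 lay above the median gene, 8 were past the fold upward and 0 downward, and the list's median was 0.21, against 0.00 for all measured genes with 6.19% past the fold upward and 0.784% downward, the shares against which the counts of the other lists stand too. Within 4 months that median was 0.31, within 14 months 0.17, and it was 0.31 in the matched cells, where 5 genes were past the fold upward. The 8 genes were Psmb9 (2.29), Ifitm1 (2.20), Ifi27 (1.94), Ifitm3 (1.63), Ifitm2 (1.38), Sp100 (1.33), Rtp4 (1.17) and Oasl2 (1.03), and none of them changed sign in the 20 settings, although Rtp4 and Oasl2 were at 0 when medians over cells were compared. Ly6a is itself an interferon-inducible gene. Usp18, which restrains interferon signalling, was the lowest member at -0.62.

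Psmb9 was detected in 44 of 50 positive cells (88%, interval 75.7 to 95.5) and in 39 of 80 negative cells (48.8%, 37.4 to 60.2). Its level ran from 0 over a median of 82.1 to 766 TPM in positive cells and from 0 over 0 to 1130 TPM in negative cells, so the classes overlapped fully while their medians were apart. On the log2(TPM+1) scale the mean was 5.92 ± 2.61 (SD over 50 cells) and 3.22 ± 3.62 (SD over 80 cells). The relative difference was 2.31 at 4 months, 2.24 at 14 months, 1.56 in set 4, 2.78 in set 5 and 1.67 in the matched cells. Ifitm1 was detected in 94% of positive cells (83.5 to 98.8) and 68.8% of negative cells (57.4 to 78.7), with medians of 679.6 and 191 TPM and maxima of 3598 and 3242 TPM. Its relative difference was 2.08 at 4 months and 2.29 at 14 months, and it rested more on set 5 (3.69) than on set 4 (0.57). Ifitm3, a relative that blocks the entry of viruses, was detected in 96% and 77.5% of cells, with medians of 682 and 480.5 TPM. In the matched cells its shares were 94.7% and 92.1% and its relative difference 0.80. Ifitm2 came to 0.46 in the matched cells, so that of the 3 Ifitm genes on the list past the fold, Ifitm1 alone remained past it (1.96). Read the other way round, 53.0% of the 83 cells with Psmb9 (41.7 to 64.1) and 12.8% of the 47 cells without it (4.83 to 25.7) were Ly6a-positive. For Ifitm1 the shares were 46.1% of 102 cells with it and 10.7% of 28 without it.

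**Figure D3:**
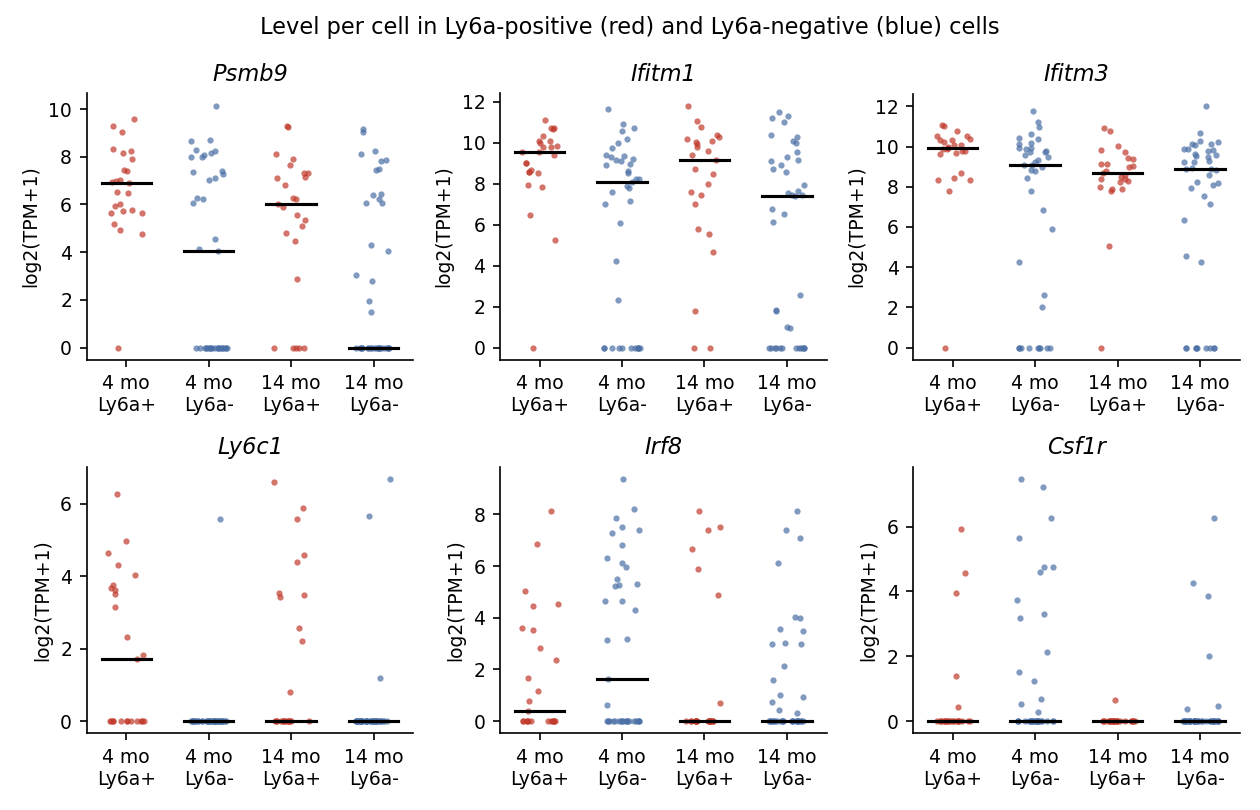
Level of 6 genes in each kept cell as log2(TPM+1) (vertical axes), for Ly6a-positive (red) and Ly6a-negative (blue) cells of 4 and 14 months (mo). Points are cells and black bars are medians. Psmb9 and Ifitm1 have higher medians in positive cells at both ages, Ly6c1 is detected in 23 positive and 4 negative cells, and Irf8 is detected in 17 positive and 34 negative cells and Csf1r in 4 and 17.

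The 3 Ifitm genes lie close together on chromosome 7 and differ in the letters around their starts. Their promoters are shown because these genes were higher in cells with Ly6a, a transcript that interferons induce. The windows run from 250 bases before the gene start to 30 bases after it, with sequence from RefSeq, build GRCm38.p6. Capitals mark matches on either strand to the interferon-gamma activated sequence (GAS, TTCNNNGAA) or to a core of the interferon-stimulated response element (ISRE), searched as a pair of GAAA units with any 2 bases between them. Ifitm1 is at chr7:140967826-140968105 on the plus strand, Ifitm2 at chr7:140955932-140956211 and Ifitm3 at chr7:141010715-141010994 on the minus strand.
Ifitm1: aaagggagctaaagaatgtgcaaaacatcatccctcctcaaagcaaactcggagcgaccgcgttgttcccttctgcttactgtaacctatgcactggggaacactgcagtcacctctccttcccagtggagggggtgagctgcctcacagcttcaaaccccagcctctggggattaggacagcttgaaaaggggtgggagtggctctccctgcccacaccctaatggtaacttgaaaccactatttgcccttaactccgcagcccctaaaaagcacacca
Ifitm2: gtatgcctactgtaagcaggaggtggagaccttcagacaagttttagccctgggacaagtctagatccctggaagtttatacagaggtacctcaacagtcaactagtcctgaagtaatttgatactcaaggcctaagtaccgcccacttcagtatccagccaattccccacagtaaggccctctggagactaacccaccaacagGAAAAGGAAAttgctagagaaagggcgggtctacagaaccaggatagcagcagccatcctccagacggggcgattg
Ifitm3: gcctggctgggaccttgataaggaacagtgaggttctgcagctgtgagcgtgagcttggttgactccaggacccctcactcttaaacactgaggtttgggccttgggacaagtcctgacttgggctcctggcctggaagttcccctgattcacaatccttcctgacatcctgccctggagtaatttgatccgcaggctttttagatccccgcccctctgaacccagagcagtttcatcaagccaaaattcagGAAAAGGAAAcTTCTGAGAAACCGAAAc
Ifitm2 has 1 ISRE core. Ifitm3 has 2 ISRE cores and 1 GAS, which overlaps the second core. The Ifitm2 core lies before the gene start, whereas all the Ifitm3 matches lie after it. Neither motif is in the window of Ifitm1, or in the windows of Psmb9, Sp100 and Oasl2, which says only that these letters are not there. Among 32851 RefSeq promoters of 300 bases, 8.30% hold the GAS and 3.44% the ISRE core. The table of promoters used has no window for Ly6a, and none is given here for Ifi27 or Rtp4.

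The MHC class I list, which also holds the immunoproteasome subunit Psmb9, was less even. Class I proteins present peptides and are also induced by interferons. Of 21 measured genes 15 lay above the median gene, 2 were past the fold upward and 0 downward (6.19% and 0.784% of all measured genes), with a median of 0.37. The count of 2 is near the share of all measured genes. Within 4 months it was 0.64 and within 14 months -0.13, and it changed sign in the matched cells (-0.05) and in the linear fit (-0.09). The 2 genes past the fold were Psmb9, already counted on the interferon list, and H2-T22, a non-classical class I gene. H2-T22 was detected in 64% of positive and 27.5% of negative cells (1.72, 1.66 matched). Since class I genes are close copies of each other, the share of reads each received is uncertain. B2m, the light chain of class I, was detected in 100% and 96.3% of cells with medians of 3108 and 2037 TPM (0.86, 0.26 matched). Of 22 measured JAK-STAT signalling genes 11 lay above the median gene and 1 was past the fold upward, Jak1, a kinase of interferon and cytokine receptors (1.60; 0.58 at 4 months and 2.61 at 14 months). The list's median of -0.06 was -0.02 in the matched cells and positive in the linear fit (0.02) and with no filter (0.16).

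Ly6a lies on chromosome 15 (74994877 to 74998031, minus strand, mm10) within a cluster of Ly6 genes. Of 53 other genes within 1 Mb, 10 were measured. Ly6e, a relative, was detected in 98% of positive and 92.5% of negative cells with medians of 557 and 350 TPM (0.84; 1.07 at 4 months, 0.61 at 14 months, 0.57 matched). Ly6c1, which encodes an endothelial and leukocyte surface antigen, was detected in 23 of 50 positive cells (46%, interval 31.8 to 60.7) and in 4 of 80 negative cells (5%, 1.38 to 12.3), with a relative difference of 1.16 (1.12 at 4 months, 1.19 at 14 months, 1.40 matched). That value is uncertain, because the genes share sequence. Transcripts of Ly6a and Ly6c1 are identical over a run of 118 bases, which ends with the first 30 coding bases of both, and 11.1% of the 50-base words of Ly6c1 transcripts also occur in those of Ly6a. The shared coding start, read from GENCODE transcripts of mm10, is shown because reads from it fit either gene.
Ly6a and Ly6c1: atggacacttctcacactacaaagtcctgt
In 22 of the 23 positive cells with Ly6c1, its TPM was between 0.01 and 0.1 of that of Ly6a, with a median ratio over the 23 cells of 0.031, and in the remaining cell the ratio was 1.81. Ly6a had a median of 348 TPM in the positive cells with Ly6c1 (52.9 to 2416) and of 33.6 TPM in those without it (1.07 to 599). In the 4 negative cells Ly6c1 was at 1.30, 47.0, 49.1 and 101 TPM. Ly6e shares no 50-base word with Ly6a. Measured genes within 1 Mb but outside the Ly6 family included Eef1d (1.12, -0.03 matched) and Gsdmd (0.85, 1.23 matched). The lowest was the pseudogene 2810039B14Rik (-0.43, -0.08 matched). Genes that assemble the GPI anchor gave 0 of 21 past the fold and a median of -0.02. Over the 20 settings the median ran from -0.21, in the matched cells, where 15 of the 21 lay below the median gene with 1 past the fold upward and 2 downward, to 0.10, and it was positive in 5.

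A list around Ctla2 and low cycling, taken over from earlier results on these cells and so no independent evidence, had 12 of 13 measured genes above the median gene, 5 past the fold upward and 0 downward, and a median of 0.71. It was 1.01 at 4 months and 0.84 at 14 months but 0.04 in set 4 against 1.12 in set 5, and 0.38 in the matched cells. Gimap6 (2.15), Cd52, a GPI-anchored peptide of lymphocytes (1.72), and Serpina3g, a protease inhibitor (1.21), were past the fold and stayed past it when matched (1.55, 1.56 and 1.57). Wfdc17, a secreted whey acidic protein, was at 1.53 and at -0.06 when matched, and Ccl3, a chemokine, at 1.06 and 0.66. Gimap6 was detected in 82% of positive cells (68.6 to 91.4) and 53.8% of negative cells (42.2 to 65.0), and its medians were 177 and 8.23 TPM. Ctla2a, a cathepsin inhibitor, was detected in 94% and 81.3% of cells with medians of 240.0 and 91.5 TPM (0.90, 0.86 matched). Immediate early genes, which respond within minutes to a stimulus, had 12 of 18 genes above the median gene and 2 past the fold: Egr1 (1.82; 0.76 at 4 months, 2.84 at 14 months, 2.30 matched) and Nr4a1 (1.36; 1.79 matched). Their list median of 0.29 was 0.25 in the matched cells and just below 0.00 when the cut for Ly6a was set at 10 TPM.

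Stem cell regulators as a list stood near the median gene, while 2 of its members, Hlf and Mecom, were more often detected with Ly6a. Of 24 measured genes 13 lay above the median gene and 11 below, and within each age 12 lay above and 12 below. Over all kept cells 1, Egr1, was past the fold. The list's median of 0.08 (0.13 matched) turned negative in 3 of the 20 settings (down to -0.06). Hlf, a transcription factor of stem cells, was detected in 72% of positive cells (57.5 to 83.8) and 47.5% of negative cells (36.2 to 59.0). Its relative difference was 0.84 (1.22 at 4 months, 0.43 at 14 months, -0.61 in set 4) and 1.07 in the matched cells. Mecom, which encodes the stem cell factor Evi1, was detected in 52% (37.4 to 66.3) and 28.8% (19.2 to 40.0), with a relative difference of 0.45 (-0.04 in set 4) and of 1.06 when matched. Over all kept cells both were positive in all 20 settings, although both were negative within set 4. Of the 42 cells with both Hlf and Mecom 57.1% were Ly6a-positive (41.0 to 72.3), and of the other 88 cells 29.5% (20.3 to 40.2). Erg, another stem cell transcription factor, lay the other way at -0.67.

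Early lymphoid genes lay above the median gene in 13 of 16 cases, with 1 past the fold upward, 0 downward and a median of 0.38 (0.12 matched). In the matched cells 8 lay above and 8 below the median gene, with 1 past the fold upward and 2 downward. In the linear fit 12 lay above and 4 below. Over all kept cells the gene past the fold was Il2rg, the shared chain of the interleukin-7 receptor and other cytokine receptors (1.37; 2.46 at 4 months, 0.29 at 14 months, 1.75 matched). Dntt, the terminal transferase of antigen receptor joining, was detected in 84% of positive and 78.8% of negative cells with medians of 572 and 220 TPM. Its relative difference of 0.84 became -0.10 in the matched cells, where the ages differed in sign (1.27 at 14 months). Il7r, the receptor chain that marks lymphoid commitment, was detected in 12% and 15% of cells (-0.59).

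Granulocyte-monocyte genes lay below the median gene in 13 of 22 cases, with 2 past the fold upward and 1 downward (6.19% and 0.784% of all measured genes). Their median was -0.23, with -0.21 in the matched cells and 0.01 over genes found in 30% of cells. It was -0.49 within 4 months and -0.05 within 14 months, where it was -0.005 in set 4 and -0.02 in set 5. The pooled median of -0.23 lies above -0.42, where a gene at 0 in every kept cell stands. Below the median gene is therefore not the same as a lower mean in positive cells. Csf1r, the receptor for macrophage colony-stimulating factor, was detected in 4 of 50 positive cells (8%, 2.22 to 19.2) and 17 of 80 negative cells (21.3%, 12.9 to 31.8). At 14 months it was in 0 of 25 positive cells, which allows a share of up to 13.7%, and in 4 of 41 negative cells. Its relative difference was -1.01 (-0.76 matched). Csf3r, another colony-stimulating factor receptor gene, lay the other way at 0.58 and was positive in all 20 settings. Irf8, a transcription factor of monocyte and dendritic cell fate, was detected in 34% (21.2 to 48.8) and 42.5% (31.5 to 54.1) of cells. Its relative difference was -0.89, with -1.81 at 4 months and -0.01 at 14 months. It was -1.83 in the matched cells (-3.15 and -0.88 by age), where its shares were 18.4% and 55.3%. Mpo, the peroxidase of primary granules, was detected in 62% and 56.3% of cells, with maxima of 1420 and 13569 TPM. Its relative difference was -0.47 and -1.91 when matched, and it turned positive when Ly6a above 0 TPM was the cut and when medians over cells were compared (2.49). Ctsg, another granule protease, was at -0.85 (-1.43 matched). Prtn3, a granule protease of the same kind, lay the other way at 1.17, with 2.36 at 4 months, 0.01 at 14 months and -0.01 in the matched cells, and Nkg7, a granule membrane protein, at 1.16 (0.98 matched).

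**Figure D4:**
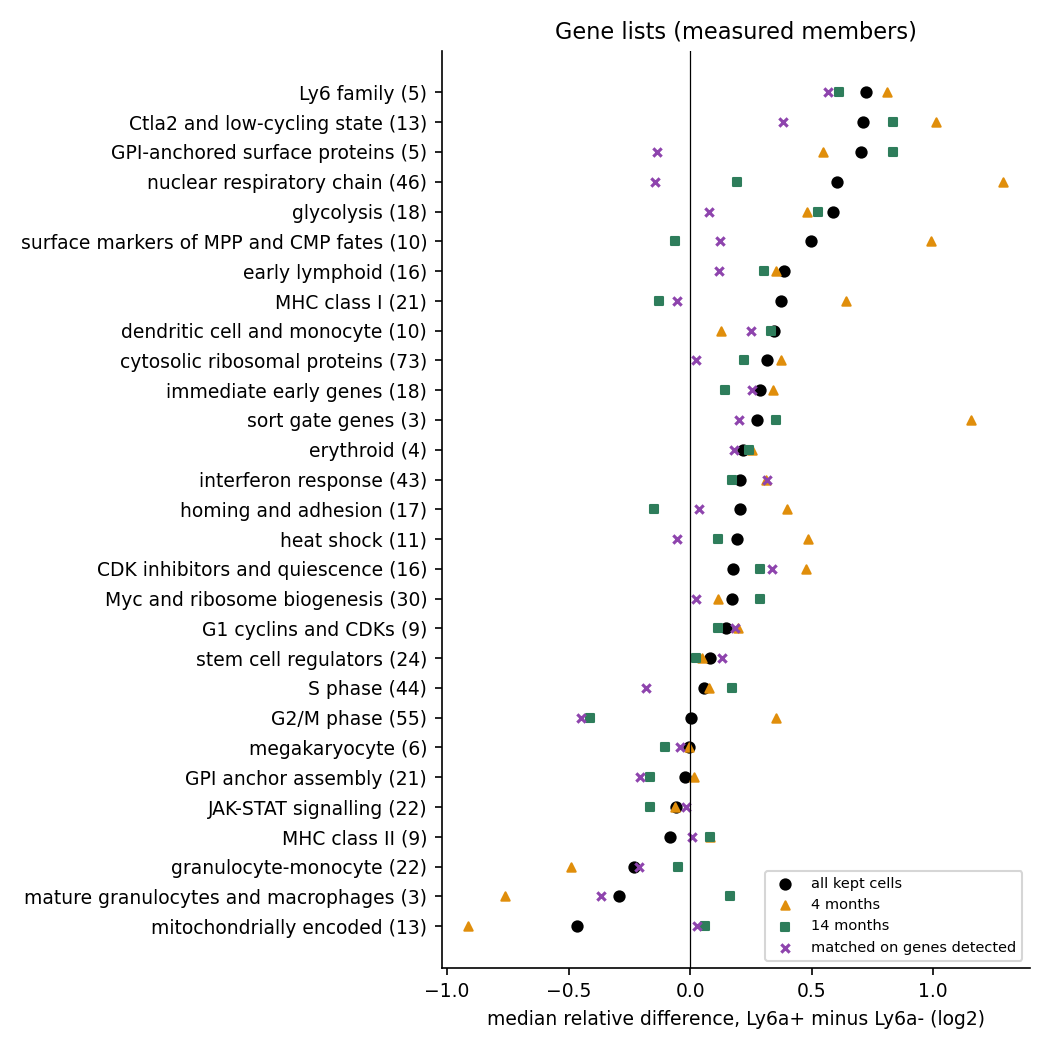
Median relative difference between Ly6a-positive and Ly6a-negative cells (horizontal axis, log2) of the measured members of each gene list (vertical axis, number of measured genes in brackets). Black circles are all kept cells, orange triangles 4 months, green squares 14 months and purple crosses cells matched on genes detected. The nuclear respiratory chain has a median of 0.61 in all cells and -0.15 in the matched cells, while the interferon response is at 0.21 and 0.31.

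Cell cycle genes did not separate the classes in a steady direction. The G2/M list of 55 measured genes had 28 above the median gene, 0 past the fold upward, 1 downward and a median of 0.00, with 0.35 at 4 months and -0.41 at 14 months. In the matched cells its median was -0.45 and 13 genes were past the fold downward against 3.77% of all genes there. Over the 20 settings the median ran from -0.45 to 0.32 and was negative in 8, the matched cells among them. Cdca3, a mitotic cell division regulator, was the gene past the fold (-1.06; -2.10 matched), and Mki67, which encodes the proliferation antigen Ki-67, was at -0.59 (-1.30 matched) and negative in all 20 settings. Top2a, a topoisomerase of dividing cells, was at 0.00, with 1.01 at 4 months and -0.96 at 14 months. The S phase list of 44 genes had 25 above the median gene and a median of 0.06. Among matched cells 14 lay above and 30 below the median gene, 1 was past the fold upward and 5 downward, and the median was -0.18. It was -0.20 in the linear fit and negative in 7 of the 20 settings. Cells with both Top2a and Mki67 were Ly6a-positive in 41.8% of 55 cases and the others in 36.0% of 75, and the intervals overlapped (28.7 to 55.9 and 25.2 to 47.9).

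Nuclear-encoded respiratory chain and glycolysis genes lay mostly above the median gene in all cells. In the matched cells most of the respiratory chain genes lay below it. The nuclear-encoded respiratory chain had 42 of 46 measured genes above the median gene, 8 past the fold upward and 0 downward, and a median of 0.61. It was 1.29 at 4 months and 0.19 at 14 months, -0.15 in the matched cells and -0.19 in the linear fit. In the matched cells 17 genes lay above the median gene and 29 below, with 3 past the fold upward and 2 downward. Ndufa9, a complex I subunit (1.84), Atp5d, an ATP synthase subunit (1.65), and Sdhb, the iron-sulfur subunit of complex II (1.56), stayed past the fold when matched (1.58, 1.06 and 1.25). The 13 mitochondrially encoded transcripts had a median of -0.46, with -0.91 at 4 months, 0.06 at 14 months, 0.03 when matched and 0.07 after quantile normalization. Glycolysis had 14 of 18 genes above the median gene, 4 past the fold upward, 0 downward and a median of 0.59 (0.08 matched). Its highest members were Pgk1, phosphoglycerate kinase (1.85; 3.22 at 4 months, 0.50 at 14 months, 1.43 matched), and Eno1, enolase (1.45; 0.76 matched). Cytosolic ribosomal protein genes had 56 of 73 above the median gene and 0 past the fold, with a median of 0.32 that was 0.02 when matched and -0.14 in the linear fit.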

How the data were processed

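RNA was measured in single sorted LMPPs of 4 and 14 months. The authors deposited TPM values for 38924 genes in 168 columns. The tools named in the submitters' processing notes are RSEM 1.2.12 and Bowtie2 2.2.0, with mm10 as the build. No column was left unused. The labels list 84 cells of 4 and 83 of 14 months, and the table has 84 columns of each age, tied to an age but not to a label. Symbols matched 37607 gene identifiers. No doublet caller was run, since it needs counts.

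For each gene the mean of log2(TPM+1) was compared between classes, with the median difference of the measured genes subtracted. Matched pairs are of 1 age and within 10% in genes detected. The linear fit has genes detected and age as terms. Shares have exact (Clopper-Pearson) 95% intervals. With 1 sample per age no test was run. Known shifts added to values shuffled over cells were recovered. That outcome is fixed by the arithmetic and is no evidence for the results.

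Genes were named when among the 12 highest or 12 lowest measured genes found in at least 20% of cells of either class with 1 sign at both ages, without predicted genes, pseudogenes, mitochondrial transcripts and small RNAs. Each list with 5 or more measured members adds its 2 highest and 2 lowest, and a key panel is added whole. Some genes that these rules take are not reported here. Other list members with values were chosen after these were seen. The cells, lists and rules were chosen with earlier results of these data known. The alternatives were 17 planned settings and 3 chosen after seeing the data (without cells over 6000 genes, with 1 gene at 20% of TPM, or in alike pairs). Computing used scipy 1.17.1, pandas 2.3.3, numpy 2.4.6 and matplotlib 3.10.9 under Python 3.11.15.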

Additional observations from a re-analysis of the deposited data

Results flagged for a closer look

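Some genes and lists lay on opposite sides of the median gene at the 2 ages. With 1 sample per age these differences were not tested. Cyc1, a subunit of respiratory complex III, was at 1.36 at 4 months and -1.57 at 14 months, a gap of 2.93. For Kit the gap was 2.23 (1.39 and -0.84), and for Top2a 1.97 (1.01 and -0.96).

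Among gene lists, the gap between the medians at 4 and at 14 months was 0.772 for MHC class I, 0.765 for the G2/M genes and 1.05 for surface markers of multipotent and myeloid progenitor fates. It was -0.973 for the mitochondrially encoded transcripts and -0.928 for the 3 measured genes of mature granulocytes and macrophages.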

How the results depend on the processing

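In the 10 settings that left out cells or moved a cut on cells, the share of Ly6a-positive cells (38.5%) lay between 33.1% and 42.3% and the excess of genes detected in them (629) between 369 and 1108. Matching brought the excess to 4.5 genes and made the classes equal in number, both by construction. The median difference of all genes (0.42) was 0.0028 in matched cells, 0.088 in the linear fit, 0.75 with a pseudocount of 0.1, 0.099 with no filter on low values, 0.094 after quantile normalization and 0 with medians over cells. The count of higher genes (576) became 1016 with cells of 500 or more genes, 288 in the linear fit, 1155 and 114 with pseudocounts of 0.1 and 10, 1292 with no filter, 277 over genes in 30% of cells, 1916 with medians over cells and 869 without set 4. The count of lower genes (73) became 345 in matched cells, 131 in the linear fit, 615 and 7 with pseudocounts of 0.1 and 10, 21 with no filter, 144 over genes in 30% of cells, 153 after quantile normalization, 19 with medians over cells, 198 without set 4 and 214 without set 5. The count of genes past the fold the same way at both ages (234) became 492 with cells of 500 or more genes, 124 in the linear fit, 647 and 25 with pseudocounts of 0.1 and 10, 523 with no filter, 113 over genes in 30% of cells, 856 with medians over cells and 380 without set 4. Prtn3 (1.17) was at -0.011 in matched cells. The cause of these changes was not tested. Ighm and Wfdc17, chosen after their values were seen, also changed sign in matched cells. Of 2800 values of 140 genes taken by the naming rule, 586 moved by more than the spread between ages, 1 changed sign after being past the fold and 2213 did neither. Depth is unknown, so a gene at 0 in a cell may be present below detection. No paired analysis was possible because no labelled replicate number pairs samples and each age is 1 sample. The 38 matched pairs are pairs of cells chosen by genes detected.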
